A study of Mus musculus with 44 samples.

Results

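The mitochondrial ribosomal protein genes were taken as the genes whose symbol begins with Mrpl or Mrps followed by a number, with pseudogenes marked -ps left out. This gave 78 genes present in both deposited tables, of 22674 genes in the maturation table and 18274 in the ovulation table. By symbol, 49 belong to the large subunit (Mrpl) and 29 to the small subunit (Mrps). Every one of the 78 passed the filters on low values in both tables. RNA was sequenced from ovarian follicles of wild-type CD-1 mice, an outbred laboratory stock. The follicles had been treated with PFNA (perfluorononanoic acid, a persistent fluorinated surfactant) in either of 2 windows, the gonadotropin-dependent maturation of the follicle or the ovulation induced by hCG (human chorionic gonadotropin). In the maturation window, 11 controls treated with DMSO, the solvent, were set against 10 PFNA libraries. In the ovulation window all libraries had received hCG, and 12 controls with hCG alone were set against 11 libraries with hCG and PFNA. Age, dose, duration and the number of follicles or animals behind each library are not given in the labels, so the p-values measure the spread between these libraries, which may be technical in part.

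Mitochondria carry their own ribosomes, which translate the few messages of the mitochondrial genome, all of them for subunits of the oxidative phosphorylation complexes. The ribosomal RNAs come from that genome, but every ribosomal protein is encoded in the nucleus, translated in the cytosol and imported. The small subunit binds the message and decodes it, and the large subunit holds the peptidyl transferase centre and the exit tunnel for the new peptide. Some of these proteins have bacterial counterparts and others were gained in mitochondria. Granulosa cells, the somatic cells of the follicle, need mitochondria for the first step of steroid synthesis, and the oocyte holds a large mitochondrial pool. Mrps30 and Mrps18a keep the class of their symbol here although their proteins sit in the large subunit, and Mrps36 keeps its class although its protein is now known as a subunit of an alpha-ketoglutarate dehydrogenase complex.

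The genes share features of position and promoter sequence. They lie on 17 chromosomes, with 11 of them on chromosome 11. A protein-coding neighbour that starts within 1000 bases and is transcribed the opposite way was annotated for 33 of 78 genes (42.3%), against 10.9% of 21938 protein-coding genes of GENCODE M21. RefSeq promoter windows of 300 bases (250 before and 50 after the annotated start, build GRCm38.p6) were matched for 69 of the 78 genes, with more than 1 window for Mrpl2, Mrpl48 and Mrps16, and a gene was counted once where any of its windows held the letters. Letters known from binding sites of factors that act on nuclear genes for mitochondria were searched on both strands. CCGGAAG, a GABP or ETS site, was found in 26 genes (37.7%), against 9.93% of the 27025 genes in the table. GCGCATGC, the core of a site of Nrf1 (nuclear respiratory factor 1), was found in 8 (11.6%, against 3.05%), and AAGATGGCG, a YY1 site, in 8 (11.6%, against 1.64%). The E-box CACGTG was found in 5 (7.25%, against 8.09%), and TGATGCAA, an ATF4 site, in 0 (against 1.03%). Different motifs shared bases in 0 of the genes, and 31 genes had none of them. A match describes the letters and is not evidence of binding.

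Promoter windows are printed for 6 genes: Mrpl40 and Mrpl50, with the largest falls of the ovulation window, Mrps21, with the largest of the maturation window, Mrpl33 and Mrpl22, which share motifs and moved apart, and Mrps11, as an example of the YY1 letters. Mrpl33 and Mrpl22 both hold the Nrf1 and GABP letters. Mrps21 holds the GABP letters and Mrps11 the YY1 letters, in both cases read on the opposite strand. Mrpl40 and Mrpl50 hold none of the letters searched. Each is given in its own direction of transcription, in lower case with the motif in capitals. The windows are chr5:31613701-31614000 (plus strand) for Mrpl33, chr11:58171414-58171713 (plus) for Mrpl22, chr3:95871465-95871764 (minus) for Mrps21, chr7:78782881-78783180 (plus) for Mrps11, chr16:18876588-18876887 (minus) for Mrpl40 and chr4:49521034-49521333 (minus) for Mrpl50.
Mrpl33: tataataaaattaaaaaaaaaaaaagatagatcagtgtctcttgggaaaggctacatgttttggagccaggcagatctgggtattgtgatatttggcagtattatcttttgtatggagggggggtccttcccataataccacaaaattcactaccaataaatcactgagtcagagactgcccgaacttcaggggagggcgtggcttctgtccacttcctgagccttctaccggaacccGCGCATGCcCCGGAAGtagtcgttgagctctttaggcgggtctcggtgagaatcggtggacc
Mrpl22: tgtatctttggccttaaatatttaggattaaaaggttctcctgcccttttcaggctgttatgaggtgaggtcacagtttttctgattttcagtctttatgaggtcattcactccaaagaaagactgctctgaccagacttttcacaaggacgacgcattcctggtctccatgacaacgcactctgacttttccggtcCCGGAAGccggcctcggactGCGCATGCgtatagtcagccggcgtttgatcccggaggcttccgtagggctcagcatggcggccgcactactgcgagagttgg
Mrps21: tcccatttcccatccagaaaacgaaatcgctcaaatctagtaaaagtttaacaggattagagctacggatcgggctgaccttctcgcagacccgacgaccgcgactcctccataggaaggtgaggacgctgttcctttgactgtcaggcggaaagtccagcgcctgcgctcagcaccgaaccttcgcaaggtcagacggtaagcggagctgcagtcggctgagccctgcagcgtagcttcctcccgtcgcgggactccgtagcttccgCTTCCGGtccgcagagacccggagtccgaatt
Mrps11: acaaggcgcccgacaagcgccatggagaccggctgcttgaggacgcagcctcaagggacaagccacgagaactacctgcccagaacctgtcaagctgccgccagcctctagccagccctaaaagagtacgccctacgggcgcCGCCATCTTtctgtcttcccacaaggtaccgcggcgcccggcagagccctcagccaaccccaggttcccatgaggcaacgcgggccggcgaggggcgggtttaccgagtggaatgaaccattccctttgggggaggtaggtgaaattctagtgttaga
Mrpl40: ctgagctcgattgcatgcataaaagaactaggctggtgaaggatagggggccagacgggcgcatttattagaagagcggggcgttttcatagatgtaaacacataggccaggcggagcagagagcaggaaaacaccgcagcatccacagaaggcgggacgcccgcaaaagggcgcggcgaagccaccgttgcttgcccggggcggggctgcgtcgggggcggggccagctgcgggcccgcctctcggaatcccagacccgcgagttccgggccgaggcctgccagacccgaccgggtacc
Mrpl50: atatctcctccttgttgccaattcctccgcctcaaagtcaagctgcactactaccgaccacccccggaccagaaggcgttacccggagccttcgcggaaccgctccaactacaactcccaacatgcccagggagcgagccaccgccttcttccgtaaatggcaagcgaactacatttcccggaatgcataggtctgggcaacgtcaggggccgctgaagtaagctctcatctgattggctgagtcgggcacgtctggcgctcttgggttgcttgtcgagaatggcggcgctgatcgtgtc

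At the level of transcript abundance in maturation controls, in TPM (transcripts per 1000000, a value per transcript length), the mean level had a median of 29.5 over the 78 genes, against 10.4 over all genes tested. Large subunit genes had a median of 35.8 and small subunit genes of 25.7. Mrpl34 was the highest at 316 ± 50.3 TPM (SD, n = 11), followed by Mrpl53 at 279 ± 31.2 and Mrpl41 at 193 ± 28.8. Mrps28 was the lowest at 1.63 ± 0.223 TPM, and 69 of the 78 genes stood at 10 TPM or more. Mrpl34 and Mrpl53 did not differ beyond their spread, while Mrpl53 stood above Mrpl41 by more than their SDs. Between the libraries of a group, the median SD of their log2 values was 0.159 in maturation controls and 0.197 in ovulation controls, against 0.22 and 0.237 over all genes tested. Mrpl27 was the most variable in the maturation controls (SD 0.383) and Mrps10 in the ovulation controls (SD 0.716). The ovulation table holds counts, which are not divided by length, so levels between genes were not compared there. Its libraries summed to between 10.6 and 19.5 times 1000000 counts. The depth behind the TPM is unknown. All 8 granulosa cell markers listed were present in both tables, and their medians differed between the groups. Each of the 8 had a lower median with PFNA in the maturation window, among them Inha, an inhibin subunit (34768 in controls and 21444 TPM with PFNA), Amh (11.2 and 1.53) and the FSH receptor Fshr (6.43 and 2.48). In the ovulation window Inha (7022 and 5892 CPM), Inhba (6350 and 4942) and Foxl2 (42.6 and 32.3) had lower medians with PFNA. Fshr (12.9 and 66.7), the aromatase gene Cyp19a1 (36 and 200), Hsd17b1 (66.4 and 267), Nr5a2 (169 and 426) and Amh (0.746 and 2.83) had higher ones. The part of these markers in the results below was not tested.

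In the maturation window PFNA lowered 24 of the 78 genes and raised 0 by limma at an adjusted p under 0.05. The gene with the largest change was Mrps21, a small subunit protein, and the others fell by at most 1.35-fold. Over all 13712 genes tested, 16.1% were called lower and 13.3% higher. The median log2 fold change was -0.14 over the 78 genes and 0.02 over all genes. The point estimate was below 0 for 68 of 78 genes. No gene had PFNA and control libraries that did not overlap, which held for 0.788% of all genes on the lower and 0.489% on the higher side. No fold change reached 2-fold. At an unadjusted p under 0.05, limma gave 0 higher and 29 lower.

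**Figure D1:**
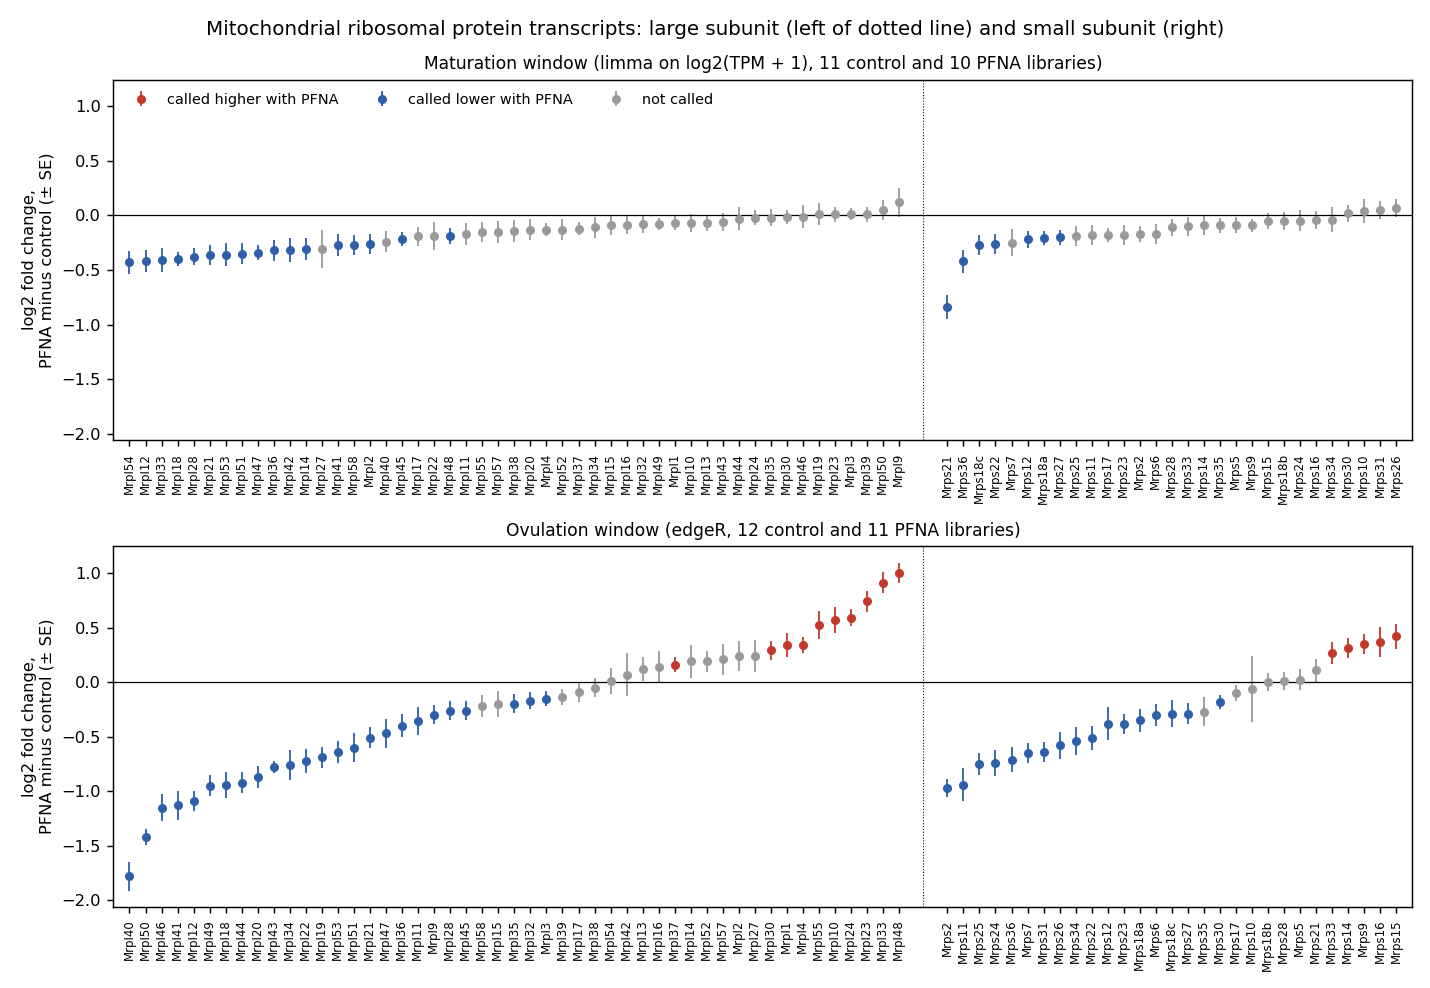
Log2 fold change (PFNA minus control, ± SE) of the 78 genes by subunit, for the maturation window (top, limma) and the ovulation window (bottom, edgeR); colours mark genes called at an adjusted p under 0.05. The maturation changes lie between -0.84 and 0.12 and the ovulation changes run from -1.78 for Mrpl40 up to the 2.01-fold rise of Mrpl48.

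Mrps21 had 52.1, 71.7 and 88 TPM as the lowest, median and highest of the maturation controls, and 28, 36.1 and 55.8 TPM with PFNA. The 2 highest PFNA libraries reached into the control range, and 8 of 10 lay below every control. Its log2 fold change was -0.84 (limma adjusted p = 1.4e-05, SE 0.109). Mrpl18, the counterpart of a bacterial protein of the central protuberance, had 53.5, 58.2 and 71.3 TPM in controls and 37.3, 44.4 and 55.5 with PFNA. For this gene 9 of 10 PFNA libraries lay below every control, and the log2 fold change was -0.40 (limma adjusted p = 0.00013, SE 0.0658).

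Of the large subunit, 17 of 49 genes fell. Mrpl47, a protein at the exit tunnel, had 11.3, 13.4 and 15.8 TPM in controls and 8.94, 10.1 and 13.6 with PFNA, and 8 of 10 libraries lay below every control (log2 fold change -0.34, limma adjusted p = 0.00071). Mrpl28 went from 95.3, 107 and 123 to 69.6, 80.2 and 108 TPM, with 8 of 10 below every control (log2 fold change -0.38, limma adjusted p = 0.0011). Mrpl54 had 88.8, 119 and 154 TPM in controls and 71.5, 89.6 and 128 with PFNA, so the groups overlapped more (5 of 10 below every control, log2 fold change -0.43, limma adjusted p = 0.0038). By position in the subunit, 3 of the 5 genes of the stalk and its base fell, which are Mrpl12, Mrpl53 and Mrpl54. Mrpl12, the stalk protein that contacts translation factors, went from 93.9, 110 and 117 to 55.3, 85.2 and 107 TPM (log2 fold change -0.42, limma adjusted p = 0.004). Mrpl11 and Mrpl10 of the same stalk had log2 fold changes of -0.17 and -0.07 and were not called. Of 5 genes counted at the central protuberance, a group that leaves out Mrpl18, 2 fell. They were Mrpl48 (log2 fold change -0.19) and Mrpl58 (-0.27), the latter a peptidyl-tRNA hydrolase. Mrpl18 fell too, as given above. At the exit tunnel 2 of 6 fell, Mrpl45 (-0.22) and Mrpl47. Mrpl33 fell with a log2 fold change of -0.41, from 6.47, 7.97 and 10 to 3.63, 5.88 and 8.85 TPM. Mrpl3, a protein next to the catalytic centre, had a log2 fold change of 0.01 (SE 0.0557) and was not called.

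Of the small subunit, 7 of 29 genes fell. Besides Mrps21 these were Mrps36 (log2 fold change -0.42), Mrps18c (-0.27), Mrps22 (-0.26), Mrps12 (-0.22), Mrps18a (-0.21) and Mrps27 (-0.20). Mrps12, a protein of the decoding centre, had 106, 121 and 145 TPM in controls and 81, 107 and 136 with PFNA (limma adjusted p = 0.041). Mrps2, Mrps5, Mrps16 and Mrps30 had log2 fold changes of -0.17, -0.09, -0.04 and 0.02 and were not called. Mrps18b, at -0.05, was the only one of the 3 Mrps18 genes not called. The median log2 fold change was -0.14 for the large and -0.11 for the small subunit, a difference of -0.03. Per library, the mean of the large minus that of the small subunit genes lay within the range of the controls in 10 of 10 PFNA libraries.

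The changes were unequal among the PFNA libraries of the maturation window. A score per library was formed as the mean log2(TPM + 1) of the 78 genes, minus the mean of the controls. It had a lowest, median and highest value of -0.09, 0.02 and 0.08 in controls, and -0.38, -0.17 and 0.02 with PFNA, and 7 of 10 PFNA libraries lay below every control. The summed level of the 78 genes was 3476, 3815 and 4145 TPM in controls and 2782, 3310 and 3885 TPM with PFNA. PFNA replicates 1 and 2 had the scores nearest to the controls, at 0.02 and 0.01. Without these 2 libraries 31 genes were called lower, all 24 among them, but since they were picked as little changed, a higher count follows from that choice and supports nothing. Oocyte transcripts moved with the group. The 12 oocyte markers in the table, of 13 listed, summed to 169 to 260 TPM in controls (median 216), and to 6.77 to 395 TPM with PFNA (median 15). PFNA replicates 1, 2 and 10 held oocyte marker shares of 0.0168%, 0.0147% and 0.0395% of the TPM, and the other 7 between 0.000677% and 0.00179%. Unlike replicates 1 and 2, replicate 10 had a score below every control (-0.19). Without replicates 1, 2 and 10, 31 genes were again lower. With the log2 share as a covariate, 1 gene, Mrps21, was called (log2 fold change -0.73, limma adjusted p = 0.015), among 310 higher and 405 lower of all genes tested. In bulk libraries such as these, fewer cells of a type and less RNA per cell cannot be told apart.

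TPM sum to a fixed total, and transcripts resembling the mitochondrial genome took more of it with PFNA. They held 14.9, 17.4 and 20.3% of the TPM in controls and 17.6, 21.1 and 23% with PFNA (lowest, median and highest, over 7 genes). After rescaling without them, 13 of the 24 genes remained called and the median over the 78 genes was -0.08, against 0.08 over all genes. Of all genes called, 59.2% were then higher, against 45.3% before. The 13 were Mrps21, Mrps36, Mrpl12, Mrpl18, Mrpl21, Mrpl28, Mrpl33, Mrpl36, Mrpl45, Mrpl47, Mrpl51, Mrpl53 and Mrpl54.

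**Figure D2:**
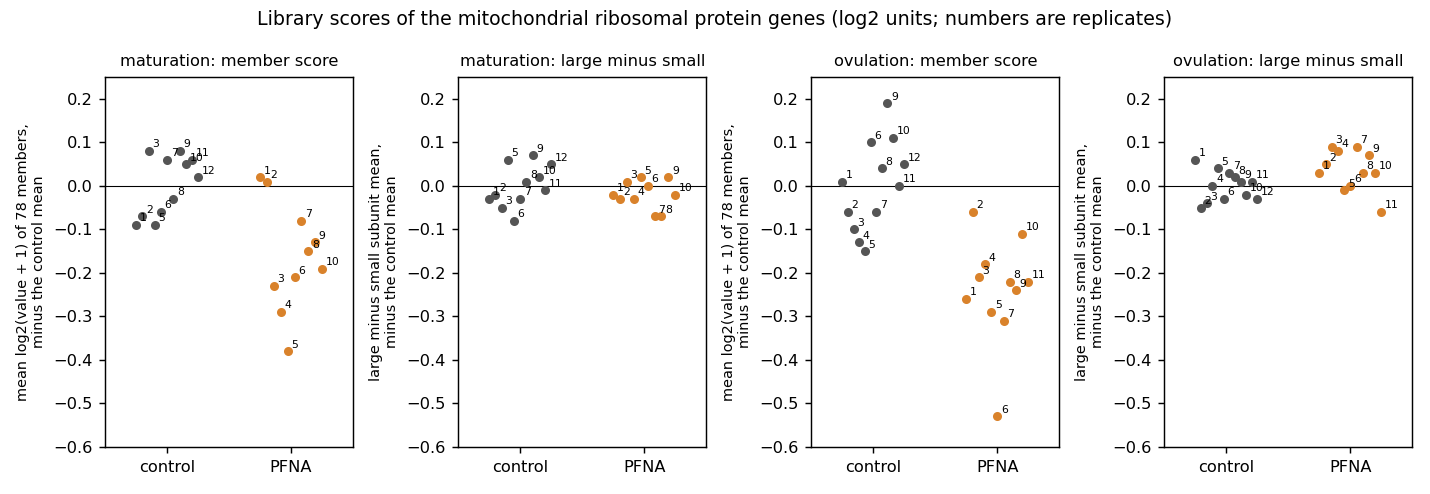
Score of each library in log2 units, minus the mean of the controls: the mean of all 78 genes, and the mean of the large minus the small subunit genes, for the maturation and the ovulation window. PFNA libraries lie lower in the first kind of panel, with maturation replicates 1 and 2 at 0.02 and 0.01, while large minus small lies between -0.08 and 0.09 in all libraries.

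In the ovulation window the 78 genes split. PFNA lowered 42 and raised 15 by edgeR at an adjusted p under 0.05, against 35.2% lower and 38.0% higher of all 13441 genes tested. The deepest falls were those of Mrpl40, Mrpl50, Mrpl46, Mrpl41 and Mrpl12, each at least 2-fold, all of the large subunit. The clearest rises were those of Mrpl48 and Mrpl33, also of the large subunit. The median log2 fold change was -0.24 over the 78 genes and 0.04 over all genes. In 16 genes every PFNA library lay below every control, and in 4 every one lay above, which held for 14.1% and 11.9% of all genes tested.

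Mrpl40, a protein of the central protuberance without a bacterial counterpart, had 20.8, 26.8 and 39.8 CPM (TMM-normalized counts per 1000000) as the lowest, median and highest of the controls. With PFNA it had 5.83, 7.24 and 13.1 CPM, so the groups were apart. The log2 fold change was -1.78 (edgeR adjusted p = 5.7e-12, SE 0.13), a 3.43-fold fall. Mrpl50, another protein gained in mitochondria, went from 49.5, 53.6 and 66.8 to 15.7, 20.5 and 25.6 CPM (log2 fold change -1.42, edgeR adjusted p = 2.1e-14, SE 0.0765). Its lowest control stood well above its highest PFNA library.

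Mrpl12 fell from 52.2, 59.9 and 73.6 to 19, 30.9 and 33.9 CPM, with no overlap (log2 fold change -1.09, edgeR adjusted p = 4.4e-11). Mrpl43 fell from 35.7, 39 and 41.5 to 18.6, 22.7 and 25.1 CPM, and its controls were the tightest of the 78 genes, with an SD of log2 values of 0.064 (log2 fold change -0.78, edgeR adjusted p = 3.7e-12). Mrpl46 and Mrpl41 fell by 2.22-fold and 2.18-fold. Mrpl41 had 12.9, 18 and 21.2 CPM in controls and 3.44, 8.76 and 10.3 with PFNA. Mrpl49, Mrpl18, Mrpl44 and Mrpl20 had log2 fold changes of -0.95, -0.94, -0.92 and -0.87, all without overlap. Of the named panel, Mrpl11 fell (-0.36, edgeR adjusted p = 0.013) and Mrpl3 fell little (-0.15, edgeR adjusted p = 0.039). The Mrpl3 call was lost in 10 of 23 fits that each left out 1 library.

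**Figure D3:**
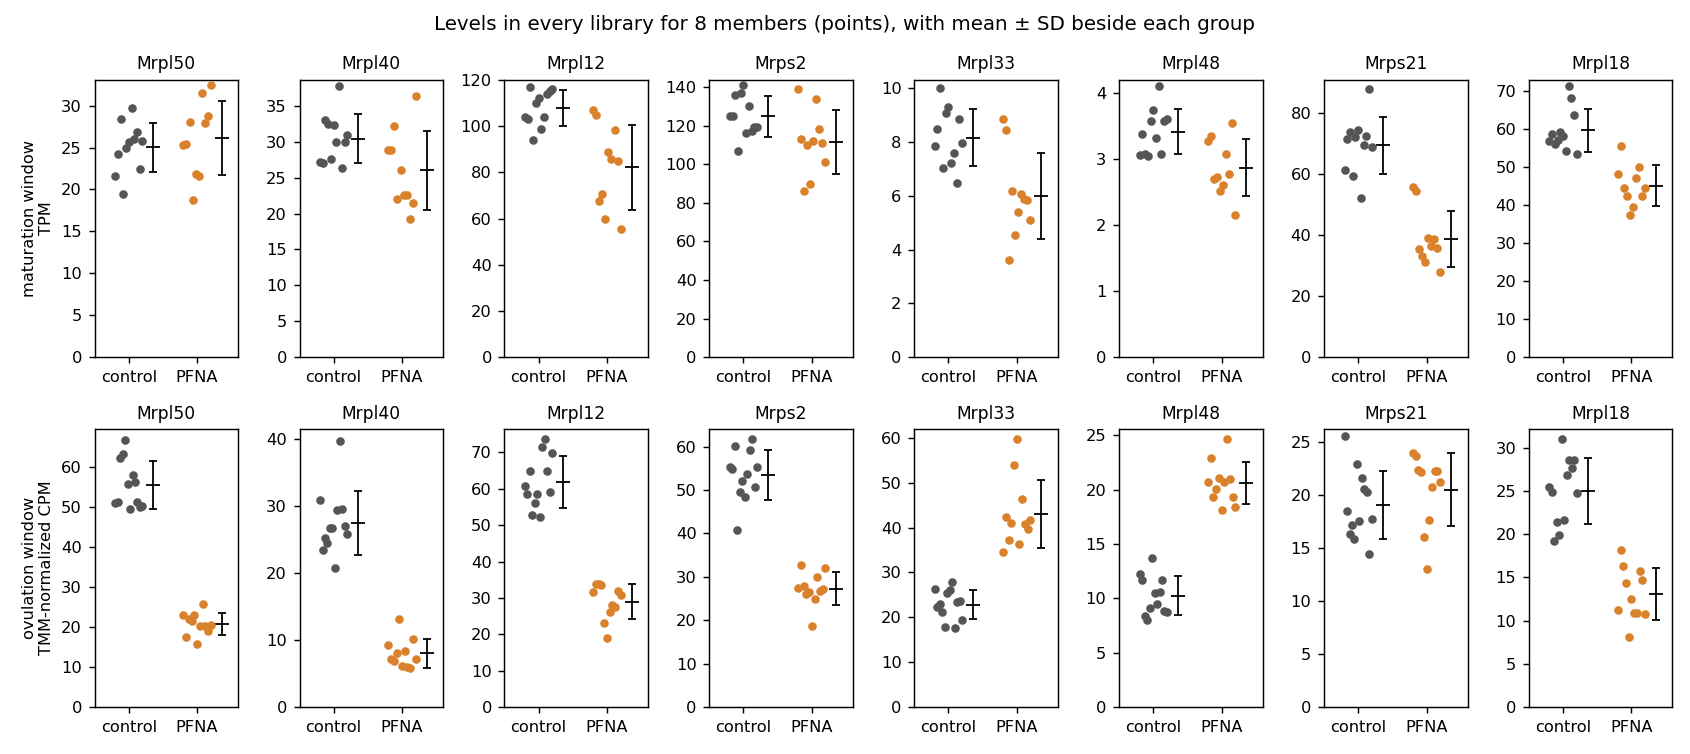
Levels in every library of 8 genes, in TPM for the maturation window (top) and TMM-normalized CPM for the ovulation window (bottom), with mean ± SD beside each group. In the ovulation window Mrpl50, Mrpl40, Mrpl12, Mrps2 and Mrpl18 separate downwards and Mrpl33 and Mrpl48 upwards, while Mrps21 has the largest fold change of the maturation window, where the groups of every gene overlap.

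Mrpl48, of the central protuberance, rose from 7.97, 9.97 and 13.7 to 18.1, 20.7 and 24.7 CPM (a 2.01-fold rise, edgeR adjusted p = 5.1e-10). Mrpl33, a small protein near the exit site of the transfer RNA, rose from 17.6, 23.3 and 27.8 to 34.6, 41.1 and 59.8 CPM (log2 fold change 0.91, edgeR adjusted p = 3.9e-09, SE 0.0953). The controls and PFNA libraries of both genes were apart. Mrpl23 and Mrpl24, of the exit tunnel, rose by 0.74 and 0.59 on the log2 scale (edgeR adjusted p = 1.5e-07 for both), from medians of 12.3 and 19.5 to 19.7 and 29.3 CPM, again without overlap. Their tunnel neighbours went the other way: Mrpl22 fell (-0.72), as did Mrpl47 (-0.47) and Mrpl45 (-0.26), and Mrpl17 was not called (-0.09). The stalk was mixed as well, with Mrpl12, Mrpl53 (-0.64) and Mrpl11 lower, Mrpl10 higher (0.57) and Mrpl54 not called (0.01). At the central protuberance Mrpl40 and Mrpl46 fell, Mrpl48 rose, and Mrpl38 and Mrpl58 were not called. Mrpl18, left out of this group, fell (-0.94). The other large subunit genes that rose were Mrpl55 (0.52), Mrpl1 (0.34), Mrpl4 (0.34), Mrpl30 (0.29) and Mrpl37 (0.16).

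Of the small subunit, 17 of 29 genes fell and 5 rose. Mrps2, the counterpart of a bacterial small subunit protein, had 40.7, 54.2 and 61.8 CPM in controls and 18.6, 27.2 and 32.8 with PFNA, with no overlap (log2 fold change -0.97, edgeR adjusted p = 5.5e-11, SE 0.08). Mrps25, Mrps31 and Mrps7 followed, at -0.75, -0.64 and -0.65 on the log2 scale (edgeR adjusted p = 3.7e-07, 6.3e-07 and 6.8e-07). Mrps25 went from 35, 40.5 and 47.5 to 13.6, 24.5 and 30.4 CPM without overlap, whereas 2 of 11 PFNA libraries of Mrps7 reached the controls. Mrps11 fell without overlap (-0.94), and Mrps36, the dehydrogenase subunit, fell as well (-0.71). Of the genes of the decoding centre and its surroundings, Mrps12 was lower (-0.38, edgeR adjusted p = 0.024) and Mrps5 was not called (0.02). The genes that rose were Mrps9 (0.35), Mrps14 (0.31), Mrps15 (0.42), Mrps33 (0.27) and Mrps16 (0.37), all with overlap between the groups. Mrps9 had 15.1, 19.4 and 24.5 CPM in controls and 18.6, 24.7 and 29.6 with PFNA (edgeR adjusted p = 0.00091). Mrps18a and Mrps18c were lower (-0.35 and -0.29), as was Mrps30 (-0.18), while Mrps18b was not called (-0.00).

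In the ovulation window the median log2 fold change was -0.20 for the large and -0.29 for the small subunit, a difference of 0.10. The share called lower was 51% of the large and 58.6% of the small subunit. Grouped by origin, 15 of 29 large subunit genes with a bacterial counterpart fell and 7 rose, and 10 of 20 without one fell and 3 rose. In the small subunit 8 of 18 genes with a counterpart fell and 4 rose, and 8 of 10 without one fell and 1, Mrps33, rose. These groups by position and origin were drawn up after the values were seen and carry no test. The library score had a lowest, median and highest value of -0.15, 0.01 and 0.19 in controls and -0.53, -0.22 and -0.06 with PFNA, and 9 of 11 libraries lay below every control. PFNA replicate 6 was the lowest and replicate 2 the highest. The summed level was 1626, 1786 and 1993 CPM in controls and 1271, 1490 and 1668 CPM with PFNA. For large minus small, 4 of 11 PFNA libraries lay above every control and 1 below.

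Markers of other cells also moved in this window. Marker values in CPM, here and for the granulosa cells above, are counts scaled to the library total without TMM normalization. The 12 oocyte markers summed to 89.4 to 440 CPM in controls (median 112) and 14.7 to 617 CPM with PFNA (median 308). Each of the 12 had a higher median with PFNA. With the share of the oocyte markers as a covariate 40 genes were lower and 15 higher, of which 38 and 15 were among the first calls. Without control replicates 2 and 7 and PFNA replicate 5, whose shares lay apart, 40 were lower and 13 higher. The 4 immune markers summed to 1.02 to 20.3 CPM in controls and 174 to 613 CPM with PFNA, the latter nearly all Cd3e. All 4 had higher medians with PFNA, Cd3e (0.167 and 223), the pan-leukocyte marker Ptprc (0.687 and 1.94), Cd68 (2.22 and 6.31) and Adgre1 (1.84 and 7.21). Of the 6 genes listed as theca markers, Star had medians of 716 CPM in controls and 191 with PFNA. Which cells held the Star transcripts was not tested. The other 5 genes of that list had higher medians with PFNA, Cyp17a1 (25 and 70.4), Insl3 (3.54 and 14.9), Ptch1 (56.9 and 89.5), Gli1 (3.99 and 20.8) and Acta2 (32.9 and 129). The endothelial markers Pecam1 (17.1 and 38) and Cdh5 (49.7 and 75.3) had higher medians as well. The part of these transcripts in the results was not tested.

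The PFNA effect was compared between windows gene by gene, each within its own table. The tables differ in unit and in annotated gene starts, so a difference between windows cannot be told apart from one between tables. It differed for 43 of 78 genes, with 21 higher and 22 lower in the ovulation window, against 32.0% and 35.6% of 11198 genes tested in both. Mrpl33 had the largest positive difference, 1.29 on the log2 scale (limma adjusted p = 1.9e-10, SE 0.144), followed by Mrpl48 at 1.14 and Mrps21 at 0.94. Mrpl33 and Mrpl48 were lower in the maturation and higher in the ovulation window. The Mrpl48 call of the maturation window was lost in 13 of 21 fits that each left out 1 library. Mrps21, the gene that fell most in the maturation window, had a log2 fold change of 0.11 (SE 0.106) in the ovulation window and was not called there. Mrpl40 and Mrpl50 had the largest negative differences, -1.44 and -1.43, and log2 fold changes of -0.24 and 0.05 in the maturation window. Mrpl50 stood at 19.5, 25.7 and 29.7 TPM in maturation controls and 18.8, 26.7 and 32.4 with PFNA.

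**Figure D4:**
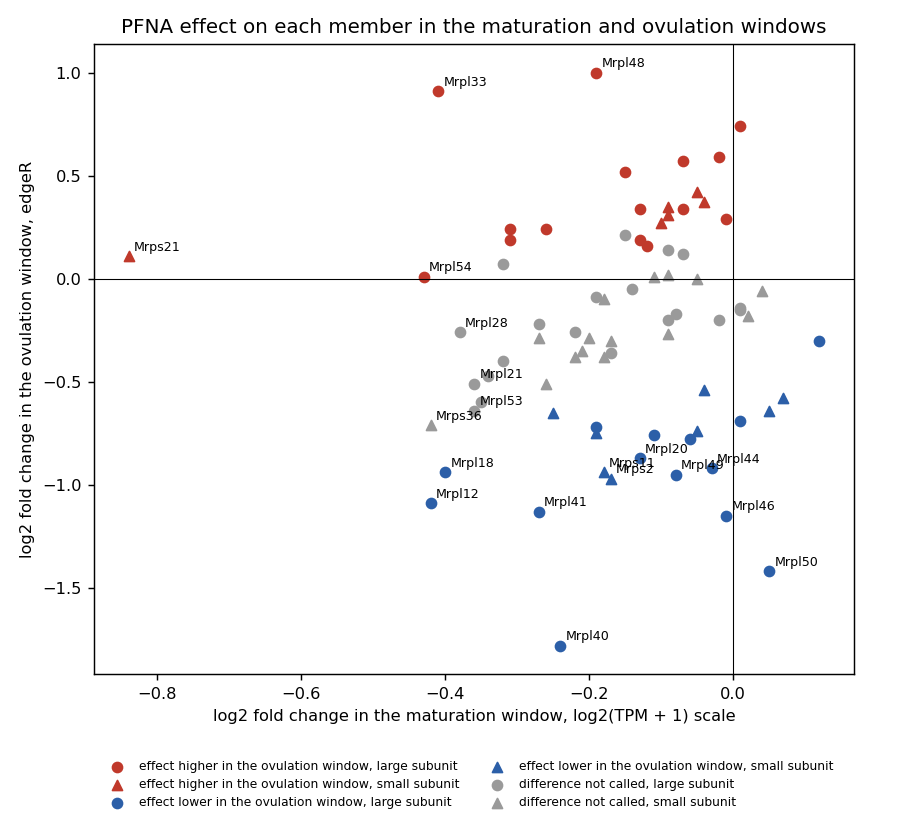
Log2 fold change of each gene in the maturation window (horizontal, log2(TPM + 1) scale) against the ovulation window (vertical, edgeR), by subunit and by the test of the difference. Mrpl33, Mrpl48 and Mrps21 lie at the upper left, Mrpl40 and Mrpl50 at the bottom.

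There were 16 genes lower in both windows. They make up 66.7% of the 24 lower in the maturation window, where 53.8% of all 78 were lower in the ovulation window. They are 38.1% of the 42 lower in the ovulation window, where 30.8% of all 78 were lower in the maturation window. The overlap was not tested, and its share over all genes is not given here. These 16 include Mrpl12 and Mrpl18, whose fall was deeper in the ovulation window by the test of the difference (-0.66 and -0.51). Also among them are Mrpl28, Mrpl47 and Mrps36, for which the difference was not called. The 15 genes called in neither window include Mrpl17, Mrpl38, Mrpl52, Mrps5, Mrps17 and Mrps18b. Across the 78 genes the fold changes of both windows had a Spearman correlation of 0.12, against -0.02 over 11198 genes. This is a description over genes that share their libraries.

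Some of the genes share a start region with a neighbour. Over 29 pairs with both genes tested in the ovulation window, 16 had both called, 10 of them in the same direction (62.5%) and 6 in opposite directions. Of the head-to-head pairs without one of the 78 genes, 444 had both called and 61.9% went in the same direction, so the share was near that of other pairs. For maturation, 7 of 30 pairs had both called, 5 in the same direction and 2 in opposite directions, against 79% in the same direction of 81 other pairs. Mrpl40 and Hira, a histone chaperone that starts 175 bases away, had log2 fold changes of -1.78 and -1.75. Hira went from 183 to 288 CPM in the controls to 54 to 85.3 with PFNA. Mrpl50 and Zfp189 (starts 83 bases apart) had -1.42 and -1.28. In the maturation window, Hira was not called (0.00) and Zfp189 rose (0.52) while Mrpl50 was not called. Mrpl46 and Mrps11, of different subunits, start 412 bases apart and fell with -1.15 and -0.94. Their annotated exons overlap by 173 bases on opposite strands, and without stated strand use reads there cannot be assigned. Pairs also went apart: Mrpl41 fell while Pnpla7 rose (1.45), Mrpl49 fell while Fau, which encodes a cytosolic ribosomal protein, rose (0.43), and Mrpl43 fell while Twnk, the mitochondrial DNA helicase, rose (0.59). Mrpl43 and Twnk share 507 exonic bases on opposite strands. The neighbours were chosen by position and these examples after their values were seen.

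**Figure D5:**
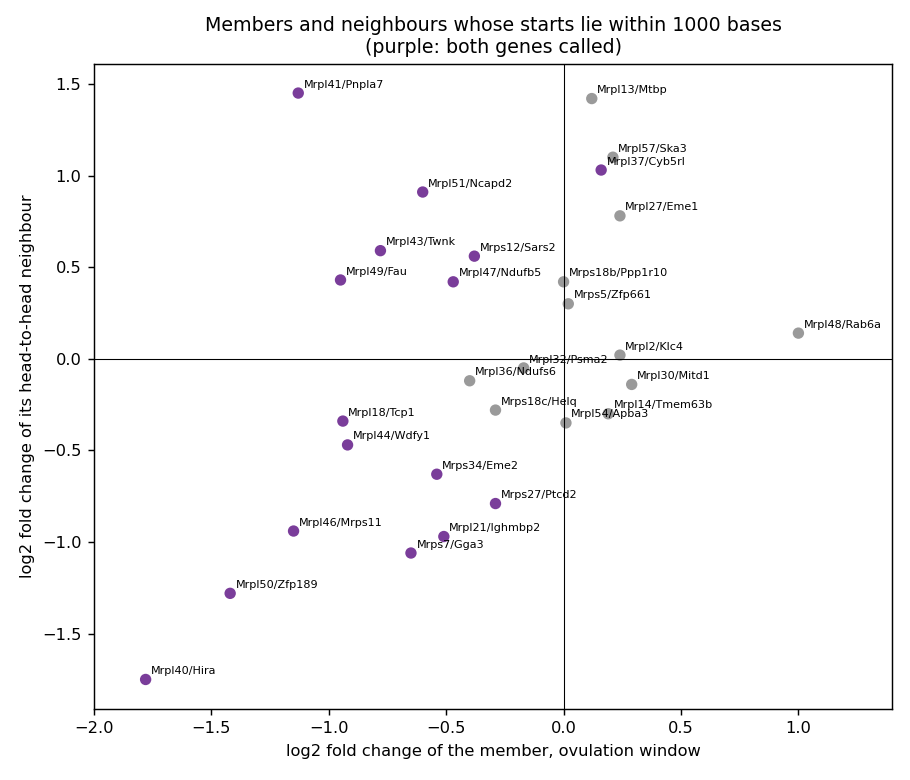
Log2 fold change in the ovulation window of each gene (horizontal) and of its head-to-head neighbour (vertical), with pairs in which both genes were called in purple. Mrpl40/Hira and Mrpl50/Zfp189 lie at the lower left and Mrpl41/Pnpla7 at the upper left.

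Beside the promoter letters, of the 26 genes with the GABP letters 13 fell in the maturation window, and 15 fell and 4 rose in the ovulation window. Of the 31 with none of the letters, 7 fell in the maturation window, and 18 fell and 8 rose in the ovulation window. Of the 8 genes with the Nrf1 letters, 1 fell in the maturation window, and 3 fell and 2 rose in the ovulation window. Of the 8 with the YY1 letters, 4 fell in the maturation window, and 6 fell and 1 rose in the ovulation window. Of the 5 with the E-box, 3 fell in the maturation window, and 3 fell and 1 rose in the ovulation window. Over all 78 genes, 30.8% fell in the maturation and 53.8% in the ovulation window, against 16.1% and 35.2% of all genes tested. The motif groups are small and overlap, since a gene can hold more than 1 motif, and they were not tested. Mrpl22 and Mrpl33, whose windows printed above hold both the Nrf1 and the GABP letters, had -0.72 and 0.91 in the ovulation window. The factor Nrf1 itself had 50.6, 55.9 and 63.3 CPM in ovulation controls and 25.3, 29.9 and 32 with PFNA, without overlap (log2 fold change -0.95, edgeR adjusted p = 2.1e-14). Gabpa, the DNA-binding subunit of GABP, had 92.5, 102 and 115 CPM and 91.8, 97.3 and 141, and was not called (-0.02). Its partner Gabpb1 rose in the ovulation window (0.23, edgeR adjusted p = 0.015), and Yy1 fell there (-0.25, edgeR adjusted p = 0.0006). Neither was called in the maturation window (0.11 and 0.04). Myc rose in both windows, by 1.08 (limma adjusted p = 0.0018) and 0.43 (edgeR adjusted p = 0.009) on the log2 scale. Ppargc1a, a coactivator of mitochondrial genes in other tissues, was too low to test, with medians of at most 0.342 TPM or CPM. In all, 3 of the 8 regulators tested in the ovulation window fell and 2 rose, and 1 of 7 rose in the maturation window. The shares called, 62.5% and 14.3%, were below those of all genes tested, 73.2% and 29.4%.

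The other genes of mitochondrial translation were taken as lists. Over all genes tested, 29.4% were called in the maturation window (16.1% lower) and 73.2% in the ovulation window (35.2% lower). The 5 mitoribosome proteins named otherwise (Dap3, Ptcd3, Chchd1, Aurkaip1 and Gadd45gip1) gave 4 lower in the maturation and 3 lower in the ovulation window. Chchd1 had the largest maturation change (-0.48, limma adjusted p = 0.0058), and Ptcd3 had -0.45 in the ovulation window (edgeR adjusted p = 2.4e-06). Of 24 assembly and rRNA modification genes tested in the maturation window, 1 rose and 2 fell (12.5% called). Of 25 in the ovulation window 3 rose and 11 fell (56% called), so both shares were below those of all genes. Ddx28, a helicase of large subunit assembly, fell from 29.1, 36.5 and 49.4 to 11, 12.9 and 17.6 CPM (log2 fold change -1.41, edgeR adjusted p = 1.9e-12). Mtg1, a GTPase of large subunit assembly, rose from 0.689, 1.67 and 3.3 to 4.04, 5.65 and 8.19 CPM (log2 fold change 1.61, edgeR adjusted p = 1.9e-06). Nsun4, an rRNA methyltransferase, fell in both windows (-0.24 and -0.46), and Ybey rose in the maturation window (0.31) and fell in the ovulation window (-0.57).

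Of 15 translation factors, 1 rose in the maturation window, Mtrf1l (0.41, limma adjusted p = 0.0093), and in the ovulation window 4 rose and 7 fell. The share called in the ovulation window, 73.3%, was near the 73.2% of all genes tested. Tufm, the elongation factor, fell from 78.2, 86.9 and 102 to 36.2, 49 and 58.4 CPM (log2 fold change -0.87, edgeR adjusted p = 4.8e-12), and was not called in the maturation window (-0.00). Mtif2, the initiation factor, rose from 3.81, 7.99 and 9.42 to 12.9, 16.5 and 20.7 CPM (log2 fold change 1.10, edgeR adjusted p = 1.3e-08). Of 7 genes of mitochondrial transcription, 1 rose in the maturation window, the elongation factor Tefm (0.48), and in the ovulation window 4 fell and 1 rose. Here too the share called in the ovulation window, 71.4%, was near that of all genes. The polymerase Polrmt (-0.83) and Tfam (-0.46), which packages mitochondrial DNA, fell without overlap between the groups, and Mterf2 rose (1.91).

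The cytosolic ribosomal proteins took another course in the ovulation window. Of 78 tested, 63 rose (80.8%, against 38.0% of all genes) and 2 fell (2.56%, against 35.2%), with a median log2 fold change of 0.37. Rpl10 went from 548, 622 and 702 to 950, 1144 and 1247 CPM without overlap (log2 fold change 0.84, edgeR adjusted p = 1.9e-12), and Rps27l fell in both windows (-0.32 in the maturation and -0.37 in the ovulation window). In the maturation window 2 of 79 fell and 0 rose by limma (9 and 0 at an unadjusted p under 0.05), with a median of -0.07. The difference between the lists was not tested.

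Near-identical copies bear on some values. In the maturation table Mrpl48-ps, a processed copy of Mrpl48, had a median of 30 TPM in controls and 31.5 with PFNA, against 3.38 and 2.74 for Mrpl48 itself, so reads could have been split between them. The ovulation table used here has no row for this copy, and where its reads were counted was not tested. Genes under other names with a transcript that largely matched were found for 14 of the 78 genes, among them Mrpl23, Mrpl33 and Mrpl41. Not all of these are copies: the match of Mrps34 was Nme3, which shares 763 exonic bases with it on the same strand. The match of Mrpl33, Gm43809, reached at most 0.0244 TPM in maturation controls and 0 with PFNA. Exons shared with another protein-coding gene were annotated for 23 of 78, of which 20 overlapped a gene on the opposite strand. Mrps25 shares 4590 of 6576 exonic bases with Nr2c2 on the opposite strand, and Mrpl53 shares 695 of 790 with Gm42688 on the same strand. Reads in such bases cannot be assigned to a gene from the sources used here.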

How the data were processed

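Poly-A RNA from mouse ovarian follicles was sequenced, with 21 libraries in the maturation and 23 in the ovulation window, and the authors deposited a table per window. The maturation values the authors deposited were taken as TPM, although the table is named as counts and no source used here states the unit. Each library sums to 1000000, which CPM would also do, but relative to the ovulation counts the values were lower for longer transcripts (log2-log2 slope -1.27, Spearman -0.563 over 7836 genes). Levels between genes rest on that reading. The ovulation values the authors deposited are estimated counts, of which 9.82% lay further than 0.01 from a whole number, and they were rounded to whole numbers first. Partek, Bowtie2 and HISAT2 are named per the submitters' processing notes, and their roles, the build and the use of strand are not given in the sources used here. Maturation gene starts matched GENCODE M21 (GRCm38) for 99.4% of genes and ovulation starts for 37.2%. Columns were joined to samples by title, and a maturation column that differs by a letter from its title was taken as control replicate 6.

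For maturation, log2(TPM + 1) was fitted with limma 3.58.1 (trend, robust) where a gene's mean reached 1 TPM. Fold changes of low genes are understated on that scale. For ovulation, edgeR 4.0.16 was used (quasi-likelihood, filterByExpr, TMM) in R 4.3.3. To compare windows, limma effects were estimated in each table separately, on log2(TPM + 1) and log2(CPM + 1), and the maturation effect was subtracted from the ovulation effect, with degrees of freedom after Satterthwaite. All p-values were Benjamini-Hochberg adjusted over every gene tested. The fits were tested on simulated data with few changed genes, as many higher as lower. Most genes were called in the ovulation window, so no support for its normalization is drawn from that. Genes named were, per window, direction and subunit, the 4 with the smallest p among those called, the 3 with the smallest p in each direction of the difference, a panel of 13, the gene with the smallest p in each direction and window of each other list, and 7 regulators and factors. Others are named where a count or group is described, after their values were seen. The members, lists and tests were chosen with earlier results of these data known. Alternatives were another pseudocount, no filter, other size factors, DESeq2 1.42.0, a replicate block, an oocyte covariate and libraries left out.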

Additional observations from a re-analysis of the deposited data

Results flagged for a closer look

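By the test of the difference, the PFNA effect differed for 43 of 78 genes (55.1%), against 67.7% of 11198 genes tested in both windows. Window and table cannot be told apart in this test. Among the genes named, it was higher in the ovulation window for Mrpl33 (1.29 on the log2 scale), Mrpl48 (1.14), Mrps21 (0.94), Mrpl23 (0.68), Mrpl24 (0.60), Mrps9 (0.44), Mrps15 (0.43), Mrpl54 (0.40), Mrps14 (0.40), Mrps33 (0.38) and Mrps16 (0.37). It was lower there for Mrpl40 (-1.44), Mrpl50 (-1.43), Mrpl49 (-0.82), Mrpl41 (-0.79), Mrps2 (-0.78), Mrpl43 (-0.70), Mrpl12 (-0.66), Mrps31 (-0.66), Mrps25 (-0.55), Mrpl18 (-0.51) and Mrps7 (-0.37).

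In the maturation PFNA group, the only one of 4 to 10 libraries, 57 results were searched by Dixon's criterion. A library stood far from the others in 6 of them, where chance gives about 1 in 20. Mrps18c stood at 34.2 TPM in replicate 2, with 25.5 the next highest, and Mrps7 at 28.3 TPM in replicate 4, with 42.8 the next lowest. Replicate 10 was high for Gabpa (28 TPM, next 21.5), Mterf2 (5.57, next 3.44) and Polrmt (40.8, next 32.9), and replicate 7 for Mtrf1l (8.34, next 6.08).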

How the results depend on the processing

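In the maturation window the count of lower genes, 24, moved to 13 after rescaling without transcripts resembling the mitochondrial genome (an alternative chosen after seeing the data, since no symbol marked such genes and the planned form was not run), to 9 with the replicate block and to 1 with the oocyte marker share as a covariate, where the calls over all genes fell from 1824 higher and 2206 lower to 310 and 405. All 9, and the 1, were among the 24. It was 21 to 24 under the other settings of scale, filter and pseudocount, 31 without PFNA replicates 1 and 2 or 1, 2 and 10, which were picked from earlier results of these data, and 17 to 28 without each library in turn, and 15 of the 24 genes were called in every one of those fits. Large minus small subunit, -0.03, moved to 0.02 with a pseudocount of 0.1 TPM and 0.00 with the covariate, and ran from -0.04 to 0.01 without each library. With the replicate block it was -0.01. The labels do not say that a number marks a pair, and same-numbered control and PFNA libraries deviated together with correlations of -0.193 to 0.168. In the ovulation window the counts of 42 lower and 15 higher ran from 38 to 43 and from 13 to 16 under every setting tried, with 39 and 14 under the replicate block. Without control replicates 2 and 7 and PFNA replicate 5, left out together after seeing the data, they were 40 and 13. Large minus small, 0.10, ran from 0.07 to 0.15 without each library, and 52 of 57 genes were called in every one of those fits. Without a filter on low counts the median over all ovulation genes was 0.26 and with DESeq2 0.31, against 0.04, both over 18274 genes instead of 13441. The difference between windows held 41 to 43 genes. No result changed direction past the threshold. Leaving aside single libraries, comparisons of named genes with an alternative kept their side of the threshold in 366 cases in the maturation window, lost a call in 41 and gained one in 9, and in the ovulation window kept it in 351 and lost it in 13. The cause of these moves was not tested.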

Other observations

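Further genes of mitochondrial gene expression moved in the ovulation window. Guf1, the mitochondrial homologue of a ribosome-bound GTPase that acts on back-translocation, rose from 2.17, 5.5 and 7.37 to 10.1, 15.2 and 16 CPM without overlap (log2 fold change 1.49, edgeR adjusted p = 1.4e-08). Oxa1l, which inserts new peptides into the inner membrane, rose (0.40, edgeR adjusted p = 5.3e-05). Mtfmt, which formylates the initiator methionine, and Taco1, an activator of the translation of a cytochrome oxidase subunit, fell (-0.80 and -0.81). Fastkd2, Trub2 and Mpv17l2, which act on the large subunit rRNA or its assembly, fell with log2 fold changes of -0.70, -0.74 and -0.79. The rRNA methyltransferases Mrm2 and Mrm3 fell (-1.37 and -0.57) while Mrm1 rose (0.32) and Tfb1m rose (1.23), at levels of 1.68 CPM in the median control for the last. Lrpprc, a stabilizer of mitochondrial messages, was not called (-0.05). These genes were named after their values were seen.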
